A study of Mus musculus with 17 samples.

Results

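The small leucine-rich proteoglycans examined here were Dcn, Bgn, Aspn, Lum, Fmod, Prelp, Ogn and Podn, which are 8 of the 31647 features in the count table. They were chosen by gene symbol, with earlier results of these data known, and all 8 passed the filter on low counts. For Fmod, at 6 to 24 counts per sham library, this rested on the infarct zone libraries, where it had 58 to 366 counts. RNA was taken from 17 male C57BL/6 J wild-type mice that were 8 to 11 weeks old. In 9 mice the left anterior descending coronary artery (LAD) was tied off permanently, with no reperfusion, and the infarct zone (IZ) was dissected 5 d later. In 8 sham mice the same operation was done without ligation, and left ventricular tissue was taken after 5 d. Each library came from a separate mouse. The design asks how transcript levels in infarcted myocardium differed from those of uninjured ventricle.

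Small leucine-rich proteoglycans are secreted proteins with a curved core of leucine-rich repeats, and most carry sugar chains: chondroitin or dermatan sulfate on Dcn and Bgn, keratan sulfate on Lum and Fmod. They bind collagen fibrils and set their diameter and spacing, and several also bind growth factors of the TGF-β family or receptors of innate immunity. In the heart they are made mainly by fibroblasts and are deposited in the collagen network and in scar. Decorin (Dcn), biglycan (Bgn) and asporin (Aspn) form class I, lumican (Lum), fibromodulin (Fmod) and prolargin (Prelp) belong to class II, osteoglycin (Ogn) to class III and podocan (Podn) to class V.

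The family sits in clusters, so neighbours can be compared. On chromosome 10 of the mm10 build, Dcn lies 46984 bases before Lum, followed by Kera and Epyc. On chromosome 13 the order is Ecm2, Aspn, Omd and Ogn, with gaps of 11653, 14896 and 15223 bases. On chromosome 1, Prelp lies 2304 bases from Optc and 115839 bases from Fmod, and Bgn lies on chromosome X. RefSeq start regions of GRCm38.p6, the assembly that mm10 stands for, were found for 6 of the 8 members. The 5 printed here belong to Bgn and to neighbours whose log2 fold changes differed (Aspn and Ogn, Fmod and Prelp). Each is the 250 bases before the annotated start of transcription, 5′ to 3′ on the strand of the gene: Bgn at chrX:73483351-73483600 on the plus strand, Aspn at chr13:49544193-49544442 on the plus strand, Ogn at chr13:49607765-49608014 on the plus strand, Fmod at chr1:134037004-134037253 on the plus strand and Prelp at chr1:133921402-133921651 on the minus strand. Capitals mark matches, on either strand, to TATAAA (the TATA box), TGACTCA (bound by AP-1), GGAATG (bound by TEAD factors), CCAAT (bound by NF-Y) and CAGAC (a SMAD-binding element).
Bgn: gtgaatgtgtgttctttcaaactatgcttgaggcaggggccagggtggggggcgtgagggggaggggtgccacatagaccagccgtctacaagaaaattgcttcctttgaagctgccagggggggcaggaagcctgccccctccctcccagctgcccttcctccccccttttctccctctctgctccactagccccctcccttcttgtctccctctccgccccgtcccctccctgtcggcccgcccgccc
Aspn: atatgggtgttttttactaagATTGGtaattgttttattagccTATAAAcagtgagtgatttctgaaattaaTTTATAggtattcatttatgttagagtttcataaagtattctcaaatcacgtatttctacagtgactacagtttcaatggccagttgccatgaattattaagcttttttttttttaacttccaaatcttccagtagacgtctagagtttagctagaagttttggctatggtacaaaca
Ogn: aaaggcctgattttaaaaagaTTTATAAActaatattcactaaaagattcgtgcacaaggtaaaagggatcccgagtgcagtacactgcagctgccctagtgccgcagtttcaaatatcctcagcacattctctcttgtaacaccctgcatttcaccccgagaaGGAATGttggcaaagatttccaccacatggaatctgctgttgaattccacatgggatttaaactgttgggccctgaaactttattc
Fmod: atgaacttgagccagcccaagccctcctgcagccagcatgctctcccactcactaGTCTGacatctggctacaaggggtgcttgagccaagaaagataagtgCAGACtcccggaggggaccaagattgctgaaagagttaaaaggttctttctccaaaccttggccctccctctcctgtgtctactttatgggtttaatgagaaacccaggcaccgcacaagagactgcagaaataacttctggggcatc
Prelp: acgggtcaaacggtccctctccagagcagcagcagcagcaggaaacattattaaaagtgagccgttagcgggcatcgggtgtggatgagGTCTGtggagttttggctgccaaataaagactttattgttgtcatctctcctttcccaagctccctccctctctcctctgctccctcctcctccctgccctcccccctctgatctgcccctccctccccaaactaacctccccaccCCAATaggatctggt
Of all 32851 start regions of this length, 12.4% held TATAAA, 4.46% TGACTCA, 12.6% GGAATG, 33.8% CCAAT and 42.2% CAGAC. The TATAAA motif occurred in Aspn, starting at positions −207 and −178 from the start of transcription, and in Ogn at −229 and −227, where the matches on the 2 strands overlap. GGAATG occurred in Ogn at −86. CCAAT occurred in Aspn at −229 and in Prelp at −15, and CAGAC in Fmod at −195 and −148 and in Prelp at −161. Bgn held none of the 5 motifs, and TGACTCA was in none of the 6 members' regions. The GC content was 64.4% for Bgn, 55.6% for Prelp, 51.2% for Fmod, 42% for Ogn and 30% for Aspn, against a median of 52.4% for all regions.

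The libraries held 1237675 to 4738307 counts, from reads of transcript 3′ ends, with molecular identifiers that the labels name for removing PCR duplicates. Levels are given as CPM (counts scaled to a fixed library total) after TMM scaling, with no division by length since reads come from the 3′ end alone. How well each 3′ end was captured is not known, and this limits comparisons of level between genes. Summed cardiomyocyte markers were at 60582 to 72809 CPM in sham and 2672 to 26803 CPM in the IZ, with all 8 of 8 markers called lower. Summed fibroblast markers were at 1616 to 2747 CPM in sham and 6919 to 13574 CPM in the IZ (7 of 8 higher, 1 lower). Gsn, the 1 that was lower, made up much of this sum in sham, and Col1a1 much of it in the IZ. The sum thus weighs different genes in each group, and the levels of both are given below. Activated fibroblast markers were at 278 to 641 and 3805 to 7302 CPM (6 of 6 higher) and macrophage markers at 335 to 492 and 1853 to 5072 CPM (6 of 6 higher). Neutrophil markers were higher for 3 of 3 tested, and tendon or cartilage markers for 5 of 5 tested, with Chad at 0 in every IZ library. Of the endothelial markers 2 of 6 were lower and none higher, and of the mural cell markers 4 of 6 were lower. The 2 atrial and the 2 skeletal muscle markers that could be tested were lower, 1 of 2 epicardial markers was higher, and no T cell, B cell or adipocyte marker reached the levels needed for a test. IZ replicate 1 stood apart, with 26803 CPM of cardiomyocyte markers against at most 6356 CPM in the other IZ libraries and with 19.5% of its counts from mitochondrially encoded features against 4.22% to 6.78%. In sham, 22.9% to 32.4% of counts were mitochondrially encoded. In such bulk tissue a change in the number of cells that make a transcript and a change in RNA per cell cannot be told apart, and the part of these shifts in the results below was not tested.

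Of the 8 members, Bgn, Aspn, Fmod, Lum and Ogn were higher in the IZ, none was lower, and Dcn, Prelp and Podn were not called. This is 5 of 8 members called higher, where 36.3% of the 12301 tested genes were called higher and 69.5% were called in either direction (edgeR's quasi-likelihood test, Benjamini-Hochberg adjusted p under 0.05). Bgn, Aspn, Fmod and Lum, 4 of 8, did not overlap between the groups with every IZ library higher, which held for 16.6% of all tested genes. No member was lower at an unadjusted p under 0.05 either, or by the DESeq2 Wald test. The median log2 fold change of the 8 members was 1.39, against 0.05 for all tested genes. Without IZ replicate 1 the count was also 5 of 8. Fmod, which passed the filter on low counts through the IZ libraries, is among the members called and among those without overlap. With no filter, 5 members were called higher as well.

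**Figure D1:**
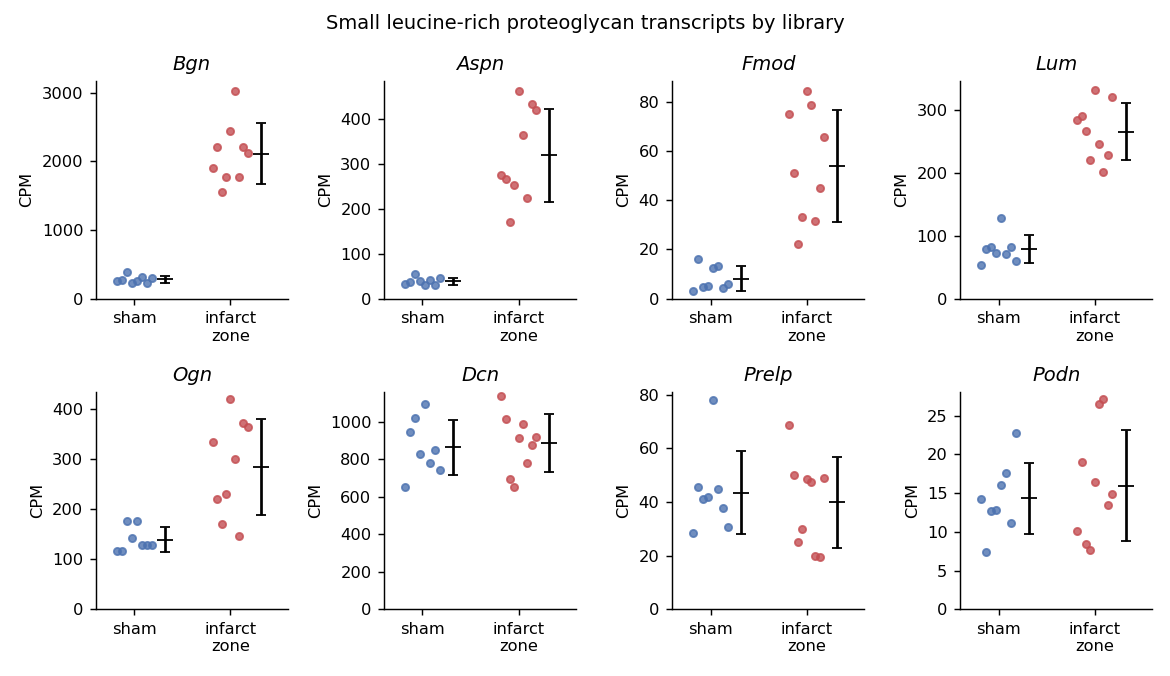
CPM after TMM scaling of each member in every library, with sham (n = 8) in blue, infarct zone (n = 9) in red, and black bars for the mean ± SD; each panel has its own linear axis from 0. Bgn, Aspn, Fmod and Lum have every infarct zone library above every sham library, Ogn has 7 of 9 above, and the points of Dcn, Prelp and Podn overlap between the groups, with 3 infarct zone libraries below all sham libraries for Prelp and 2 above for Podn.

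Among the class I members, biglycan is a ligand of Toll-like receptors 2 and 4 when released from the matrix, and it also binds collagen and TGF-β. Bgn (ENSMUSG00000031375, chrX:73483602-73495933) had 232 CPM in the lowest, 270 in the median and 393 in the highest sham library, and 1560, 2119 and 3032 CPM in the corresponding IZ libraries. The lowest IZ library was thus above the highest sham library. The means were 284 ± 53.1 CPM (SD, n = 8) and 2114 ± 441 CPM (SD, n = 9), a log2 fold change of 2.90 ± 0.17 (SE), or 7.46-fold (edgeR's quasi-likelihood test, Benjamini-Hochberg adjusted p = 3.04e-12). Its level moved from the 96.5th to the 99.8th percentile of tested genes.

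Asporin carries a run of aspartate residues in place of an attached sugar chain, and competes with decorin for collagen. Aspn (ENSMUSG00000021388, chr13:49544443-49567565) ranged from 30.4 CPM through a median of 38.5 to 53.8 CPM in sham, and from 171 CPM through 274 to 462 CPM in the IZ. All 9 IZ libraries were above all sham libraries, although the IZ libraries themselves spread widely, with a coefficient of variation of 32.6%. The means of 39.0 ± 8.07 CPM (SD, n = 8) and 319 ± 104 CPM (SD, n = 9) gave the largest log2 fold change among the 8 members, 3.03 ± 0.20 (SE), or 8.20-fold (edgeR's quasi-likelihood test, Benjamini-Hochberg adjusted p = 1.17e-11). Its 95% interval, 2.62 to 3.45, overlaps those of Bgn (2.54 to 3.26) and Fmod (2.08 to 3.42). Aspn and Ogn both overlap Cenpp on the opposite strand. The Cenpp count itself was 1 to 13 per sham library and 3 to 33 per IZ library, and whether the counting used strand is not stated, so reads of the 2 strands cannot be told apart.

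Decorin binds type I collagen and TGF-β and is the closest relative of biglycan. Dcn (ENSMUSG00000019929, chr10:97479609-97518143) was the most abundant member in sham, at 655 CPM in the lowest, 839 in the median and 1093 in the highest library, and the IZ values were 652, 915 and 1135 CPM. The groups lay over each other, with 1 IZ library above and 1 below every sham library. With means of 864 ± 146 CPM (SD, n = 8) and 886 ± 155 CPM (SD, n = 9), the log2 fold change was 0.04 with a 95% interval of −0.27 to 0.34 (edgeR's quasi-likelihood test, Benjamini-Hochberg adjusted p = 0.840). Changes in either direction within that interval remain compatible with these data. Leaving out sham replicate 1, sham replicate 8 or IZ replicate 1 turned the sign, to −0.02, −0.003 and −0.05.

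In class II, lumican and fibromodulin carry keratan sulfate and bind the same region of type I collagen. Lum (ENSMUSG00000036446, chr10:97565128-97572703) had 54.2, 75.9 and 128 CPM in the lowest, median and highest sham library, and 202, 266 and 331 CPM in the IZ. No IZ library reached down to the sham range. From 78.7 ± 22.4 CPM (SD, n = 8) to 265 ± 44.9 CPM (SD, n = 9) the log2 fold change was 1.75 ± 0.16 (SE), or 3.36-fold (edgeR's quasi-likelihood test, Benjamini-Hochberg adjusted p = 1.07e-09).

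Fmod (ENSMUSG00000041559, chr1:134037254-134048277) was the least abundant member in sham, with 6 to 24 counts per library, and had 58 to 366 counts in the IZ. Its levels were 3.28, 5.56 and 16.3 CPM in the lowest, median and highest sham library, and 22.4, 50.9 and 84.4 CPM in the IZ. The groups did not overlap, but the relative spread was the widest of the 8 members in sham, with a coefficient of variation of 61.2%. The means were 8.17 ± 5.00 CPM (SD, n = 8) and 54.1 ± 22.8 CPM (SD, n = 9), a log2 fold change of 2.75 ± 0.32 (SE), or 6.73-fold (edgeR's quasi-likelihood test, Benjamini-Hochberg adjusted p = 8.06e-08). It moved from the 22.4th to the 80.7th percentile of expression, the longest such move among the members.

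Prolargin has a basic amino-terminal stretch that binds heparan sulfate and links basement membranes to collagen. Prelp (ENSMUSG00000041577, chr1:133910304-133921414) was at 28.5, 41.5 and 78.2 CPM in the lowest, median and highest sham library and at 19.6, 47.6 and 68.9 CPM in the IZ. The groups overlapped, with 3 IZ libraries below every sham library and none above. The means of 43.5 ± 15.3 CPM (SD, n = 8) and 39.9 ± 16.9 CPM (SD, n = 9) gave a log2 fold change of −0.12 with a 95% interval of −0.61 to 0.37 (edgeR's quasi-likelihood test, Benjamini-Hochberg adjusted p = 0.661). Without sham replicate 5, which held the value of 78.2 CPM, the estimate was 0.05.

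Osteoglycin, also called mimecan, is found in collagen-rich tissue and takes part in fibril assembly. Ogn (ENSMUSG00000021390, chr13:49608046-49624501) had 117, 128 and 177 CPM in the lowest, median and highest sham library and 145, 299 and 419 CPM in the IZ. Of the IZ libraries 7 of 9 were above all sham libraries, and the other 2 lay within the sham range. With means of 139 ± 24.6 CPM (SD, n = 8) and 283 ± 96.1 CPM (SD, n = 9), the log2 fold change was 1.03 ± 0.19 (SE), or 2.04-fold (edgeR's quasi-likelihood test, Benjamini-Hochberg adjusted p = 4.11e-05).

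Podocan is a collagen-binding member first known from the kidney and from vascular smooth muscle. Podn (ENSMUSG00000028600, chr4:108014791-108096445) was at 7.47, 13.5 and 22.8 CPM in the lowest, median and highest sham library and at 7.72, 14.9 and 27.1 CPM in the IZ. All but 2 IZ libraries lay within the sham range. The means were 14.4 ± 4.59 CPM (SD, n = 8) and 16 ± 7.18 CPM (SD, n = 9), and the log2 fold change was 0.12 with a 95% interval of −0.42 to 0.65 (edgeR's quasi-likelihood test, Benjamini-Hochberg adjusted p = 0.698). The Podn locus overlaps Scp2 on the same strand, and Scp2 was at 186 ± 12.7 CPM in sham and 69.6 ± 11.6 CPM in the IZ, so counts from the shared stretch could belong to either gene.

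The scaling decides how the 3 uncalled members read. When libraries were scaled by total counts alone, the median log2 fold change of all genes was 1.14 in place of 0.05, a shift of 1.09, and the share of higher calls rose from 52.3% to 85.8%. Dcn (1.11), Prelp (0.94) and Podn (1.22) were then called higher, so that all 8 members were, but their log2 fold changes lay close to that shifted median. Bgn, Aspn, Fmod, Lum and Ogn were called higher under that scaling too, and under every other setting and left-out library that was run.

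**Figure D2:**
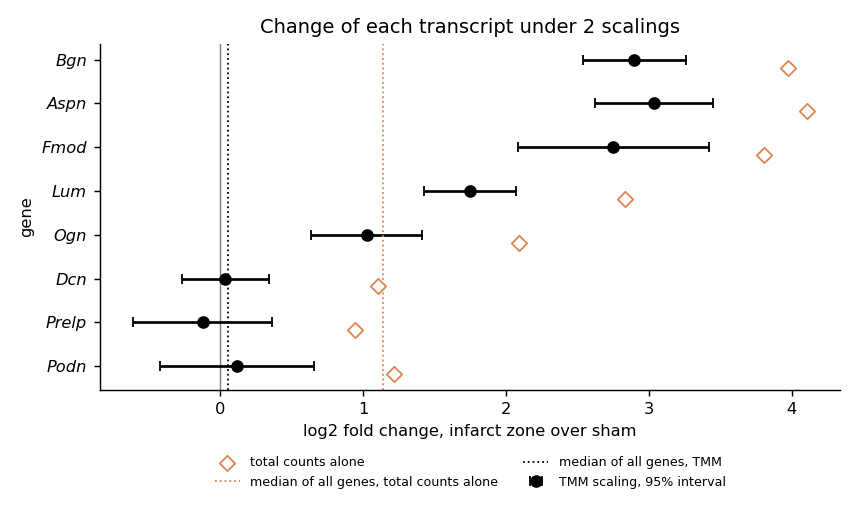
Log2 fold change (infarct zone over sham, horizontal axis) of each member from edgeR, with TMM scaling as black points and 95% intervals and total counts alone as orange diamonds; dotted lines give the median of all tested genes under each scaling. Bgn, Aspn, Fmod and Lum lie far above both medians, Ogn lies above the median of its own scaling, and Dcn, Prelp and Podn lie near the median of each.

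As a sum, the 8 transcripts were at 1471 ± 220 CPM (SD, n = 8) and 3977 ± 729 CPM (SD, n = 9). As a share of all counts, without TMM scaling, they were at 0.0985% ± 0.0151 and 0.559% ± 0.112. The rise in share is larger than that in CPM, since the mean TMM factor was 0.675 in sham and 1.43 in the IZ. Without Bgn the sums were 1187 ± 200 CPM and 1863 ± 360 CPM. In sham the order of levels was Dcn, Bgn, Ogn, Lum, Prelp, Aspn, Podn and Fmod. Of these neighbours, Ogn and Lum, Lum and Prelp, Prelp and Aspn, and Podn and Fmod had overlapping ranges, and Prelp was above Aspn in 5 of 8 libraries only. In the IZ the order was Bgn, Dcn, Aspn, Ogn, Lum, Fmod, Prelp and Podn. Here Aspn and Ogn, Ogn and Lum, Fmod and Prelp, and Prelp and Podn overlapped in range, with Ogn above Lum in 6 of 9 libraries.

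The composition of the family turned from Dcn to Bgn. Dcn made up 58.6% ± 2.83 (SD, n = 8) of the summed member counts in sham and 22.5% ± 2.86 (SD, n = 9) in the IZ, and Bgn 19.4% ± 3.19 and 53.1% ± 3.73. The share of Aspn went from 2.68% ± 0.530 to 7.89% ± 1.67. None of these 3 shares overlapped between the groups. The share of Prelp, 2.92% ± 0.675 in sham and 0.990% ± 0.352 in the IZ, did not overlap either, whereas those of Lum (5.30% ± 0.883 and 6.77% ± 1.22), Ogn (9.47% ± 0.854 and 7.02% ± 1.66), Fmod (0.547% ± 0.314 and 1.31% ± 0.380) and Podn (1.0% ± 0.377 and 0.403% ± 0.191) did. Shares sum to a whole, so a member that holds its level loses share when Bgn gains.

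**Figure D3:**
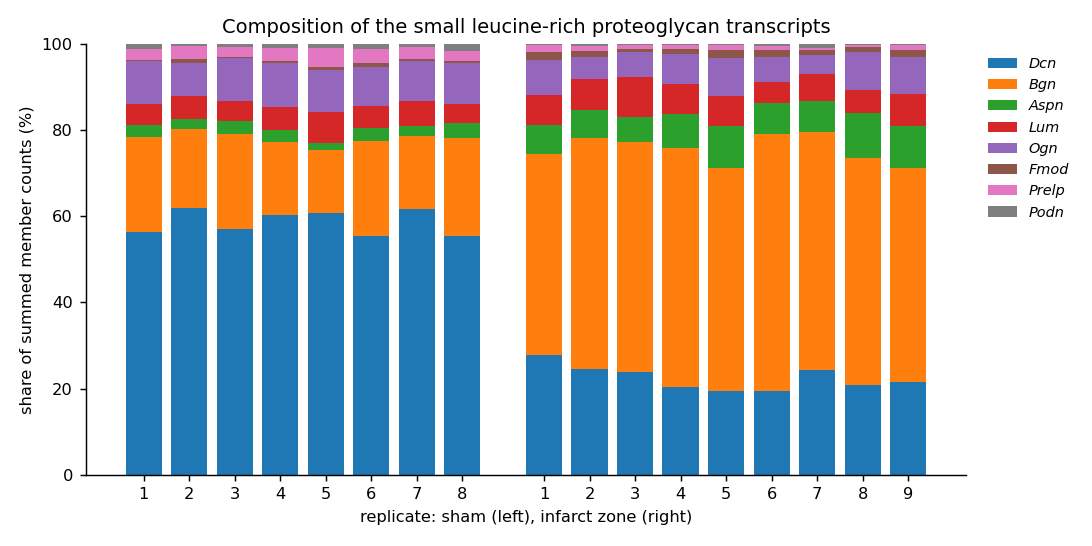
Stacked bars of the share (%) of the summed counts of the 8 members in each library, with the 8 sham replicates on the left and the 9 infarct zone replicates on the right. Dcn (dark blue) takes 55.4% to 61.9% of each sham bar and 19.4% to 27.8% of each infarct zone bar, and Bgn (orange) takes 14.5% to 22.8% and 46.6% to 59.7%.

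Ratios of counts inside a library do not depend on scaling, and 6 pairs of relatives or neighbours were compared with a two-sided exact permutation test over all 24310 ways to divide the 17 libraries into groups of 8 and 9. The ratio of Bgn to Dcn, the closest relatives, was 0.238 to 0.412 in sham with a median of 0.338, and 1.68 to 3.08 in the IZ with a median of 2.31. Every sham library held more Dcn than Bgn, and every IZ library more Bgn than Dcn. The difference in mean log2 ratio was 2.86 ± 0.14 (SE; exact permutation p = 8.23e-05, the smallest that this test allows, and 9.87e-05 after Benjamini-Hochberg adjustment over the 6 pairs).

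The same p-values were reached by 4 more pairs, none of which overlapped between groups. Aspn to Dcn, both class I, rose from a median ratio of 0.0490 to 0.369 (log2 difference 2.94 ± 0.19, SE), and Lum to Dcn, neighbours on chromosome 10, from 0.0860 to 0.286 (1.74 ± 0.11). On chromosome 13, Ogn to Aspn fell from a median of 3.4 (2.79 to 5.76) to 0.865 (0.651 to 1.22), a log2 difference of −2.01 ± 0.14 (SE). On chromosome 1, Prelp to Fmod fell from a median of 7.01 (2.76 to 8.57) to 0.748 (0.440 to 1.12), a log2 difference of −2.96 ± 0.27 (SE). In each of these 3 clusters the pair that was compared differed in its change. Fmod to Lum, the pair that shares a collagen site, differed less: the medians were 0.0847 and 0.198, 3 of 9 IZ libraries were above all sham libraries, and the log2 difference was 1.0 ± 0.32 (SE; exact permutation p = 0.00913, also after adjustment).

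**Figure D4:**
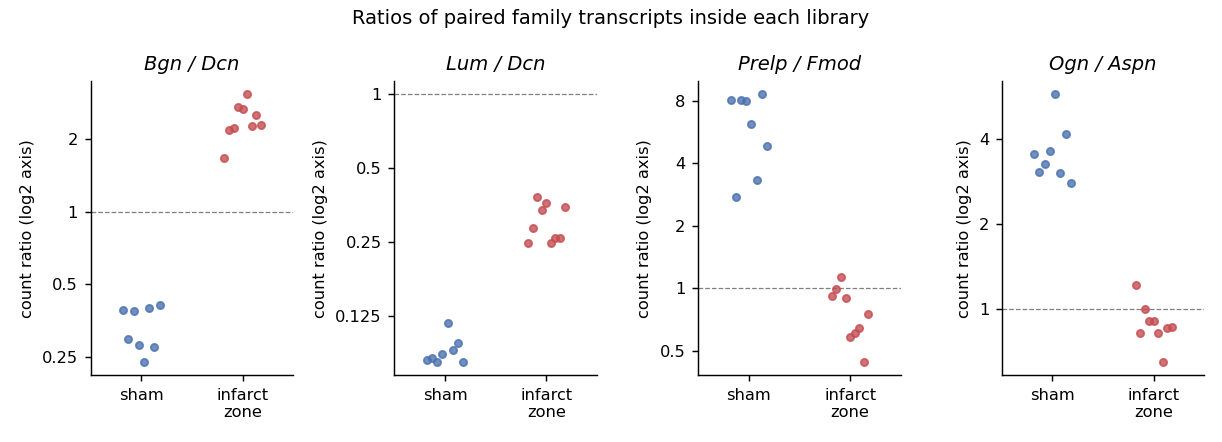
Count ratio inside each library on log2 axes for Bgn to Dcn, Lum to Dcn, Prelp to Fmod and Ogn to Aspn, with sham (n = 8) in blue, infarct zone (n = 9) in red and a dashed line at a ratio of 1. The groups are separate in all 4 panels, and Bgn to Dcn lies below 1 in every sham library and above 1 in every infarct zone library.

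Since the proteins bind collagen fibrils, each member was set against the summed counts of Col1a1, Col1a2 and Col3a1, the fibrillar collagen chains of scar. All 3 collagen genes rose, Col1a1 from 352 ± 113 CPM (SD, n = 8) to 5641 ± 1151 CPM (SD, n = 9). All 8 members fell relative to collagen, as any gene does that rose less than these 3 collagens. The median log2 fold change of all tested genes was 0.05, and Aspn, the highest of the 8 members, was at the 96.6th percentile. A fall is thus what most genes would give. The p-values below test only against an unchanged ratio. The log2 ratio difference was −0.89 ± 0.15 (SE) for Bgn, −0.81 ± 0.23 for Aspn, −1.01 ± 0.42 for Fmod, −2.01 ± 0.20 for Lum, −2.82 ± 0.25 for Ogn, −3.75 ± 0.19 for Dcn, −3.97 ± 0.31 for Prelp and −3.71 ± 0.26 for Podn. For Dcn this is a median of 0.879 Dcn counts for each collagen count in sham and 0.0584 in the IZ. Exact permutation p-values adjusted over 16 ratios were 1.88e-04 for Lum, Ogn, Dcn, Prelp and Podn, whose groups did not overlap, 4.94e-04 for Bgn, 0.00446 for Aspn and 0.0289 for Fmod. The Fmod call was lost without sham replicate 2, 5 or 6 or IZ replicate 3 or 7, with differences of −0.80 to −0.92 and adjusted exact permutation p-values of 0.0522 to 0.0614.

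Against Pdgfra, the receptor gene that marks fibroblasts, the members parted in direction. Pdgfra itself rose from 25.8 ± 3.99 CPM (SD, n = 8) to 49.3 ± 7.55 CPM (SD, n = 9), a log2 fold change of 0.94 (edgeR's quasi-likelihood test, Benjamini-Hochberg adjusted p = 4.48e-07). Relative to it, Bgn (log2 difference 1.97 ± 0.12, SE), Aspn (2.05 ± 0.18), Fmod (1.85 ± 0.36) and Lum (0.85 ± 0.17) rose, with adjusted exact permutation p-values of 1.88e-04, 1.88e-04, 8.38e-04 and 5.85e-04. Dcn (−0.89 ± 0.17), Prelp (−1.11 ± 0.29) and Podn (−0.85 ± 0.27) fell, with adjusted exact permutation p-values of 6.58e-04, 0.00296 and 0.0102. A gene at the median log2 fold change of all tested genes, 0.05, would fall against Pdgfra as well. The falls of Dcn, Prelp and Podn are thus not particular to them. For Ogn the difference was 0.04 ± 0.20 (adjusted exact permutation p = 0.854), and its sign changed with the libraries left out. Pdgfra is a stand-in for fibroblast RNA, and its own level per cell is not known here.

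**Figure D5:**
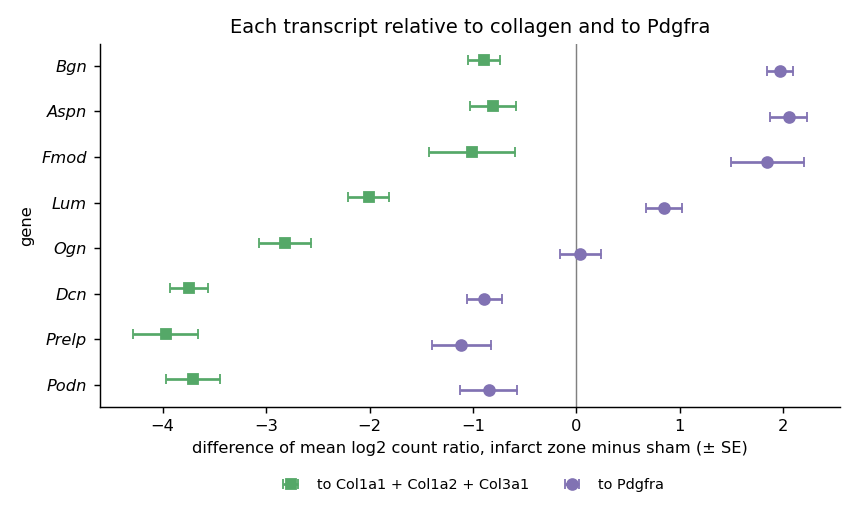
Difference of the mean log2 count ratio, infarct zone minus sham (horizontal axis, ± SE), of each member to the summed fibrillar collagens (green squares) and to Pdgfra (purple circles). All 8 squares lie below 0, while the circles of Bgn, Aspn, Fmod and Lum lie above 0, that of Ogn near 0 and those of Dcn, Prelp and Podn below 0.

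Within a group, members could be compared for covariation across mice, with 28 pairs in each group, 56 relations in all and log2 CPM that share a scaling factor per library. In the IZ 26 of 28 pairs had a positive Pearson's r, with a median of 0.56. Other gene pairs were not computed in either group, so whether such values are particular to the members is not known. The highest was Aspn with Ogn, the chromosome 13 neighbours (r = 0.893, exact permutation p = 0.00203, adjusted 0.0568; Spearman's rho = 0.95, exact permutation p = 3.53e-04, adjusted 0.0111; n = 9). It was 0.844 without the 2 libraries farthest from the median of Aspn and 0.947 without IZ replicate 1, where it passed the threshold (adjusted exact permutation p = 0.0324). Dcn with Fmod (r = 0.822, exact permutation p = 0.00999, adjusted 0.0933; rho = 0.7, adjusted 0.242) and Fmod with Ogn (r = 0.809, exact permutation p = 0.0138, adjusted 0.0969; rho = 0.717, adjusted 0.229) followed, and fell to 0.676 and 0.693 without the 2 farthest libraries. The lowest was Lum with Podn (r = −0.0925, exact permutation p = 0.809, adjusted 0.924; rho = 0.0167). With all 9 libraries no IZ pair passed the adjusted threshold on Pearson's r, and 9 had an exact permutation p under 0.05 before adjustment.

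In sham 19 of 28 pairs were positive, with a median r of 0.20, and 1 pair passed the adjusted threshold. This was Dcn with Lum, the chromosome 10 neighbours (r = 0.907, exact permutation p = 3.47e-04, adjusted 0.0194; rho = 0.976, exact permutation p = 3.97e-04, adjusted 0.0111; n = 8). Without the 2 farthest libraries r was 0.828, and on CPM scaled by total counts alone it was 0.853 and no longer passed (adjusted exact permutation p = 0.0604). Lum with Prelp had the highest r, 0.939 (exact permutation p = 0.00853, adjusted 0.0933; rho = 0.619, adjusted 0.379), but it rests on the 2 libraries farthest from the median of Lum, since it was 0.619 without them. Bgn with Aspn was at 0.849 (exact permutation p = 0.0127, adjusted 0.0969; rho = 0.714, adjusted 0.269), and 0.933 without the 2 farthest libraries. The lowest was Dcn with Podn, at −0.347 (exact permutation p = 0.403, adjusted 0.665; rho = −0.452).

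Across all 17 libraries, after the group means were subtracted, 9355 genes with at least 10 CPM were ranked by how closely they followed each member. These correlations are descriptions, over libraries that share a scaling factor, and carry no p. Dcn was followed most closely by Gsn (r = 0.903), which encodes the actin-severing protein gelsolin, Adamtsl2 (0.779) and Fbln1 (0.776). Gsn followed Dcn from mouse to mouse although its own mean fell from 1150 ± 188 CPM to 215 ± 48.1 CPM. Bgn was followed by Mmp23 (0.862), the microfibril gene Mfap4 (0.857) and Chpf (0.851), a subunit of the chondroitin polymerase. Aspn was followed by Mfge8 (0.819), Gpx8 (0.817) and Serpine2 (0.805), and Ogn by Cst3 (0.846), Pdlim3 (0.813) and Pcsk6 (0.805). Fmod was followed by 1500015O10Rik (0.896), Abi3bp (0.874) and Itgbl1 (0.828), and Prelp by Serping1 (0.883), Rab11b (0.851) and Lama2 (0.848). Lum was followed by Fam8a1 (0.886), Yaf2 (0.841) and Cstf2t (0.821), and Podn by Bsdc1 (0.900), Phc1 (0.798) and Gas6 (0.786).

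Of 9 further genes of the family, 2 had counts enough for the test, and Tsku had them only in the IZ. A gene so low in sham is tested only if it is high in the IZ, which favours a higher call. Tsku, a secreted class IV member that binds growth factors, had 0.679, 1.63 and 5.55 CPM in the lowest, median and highest sham library and 15.9, 19.8 and 28.2 CPM in the IZ. Every IZ library was above every sham library, and the log2 fold change of 3.13 ± 0.27 (SE) was called higher (edgeR's quasi-likelihood test, Benjamini-Hochberg adjusted p = 9.17e-10), with 1 to 10 sham counts and 35 to 169 IZ counts per library. Ecm2, the neighbour of Aspn, was at 21.1 ± 4.15 CPM in sham and 24.7 ± 11.7 CPM in the IZ, with a log2 fold change of 0.20 and a 95% interval of −0.29 to 0.69 (edgeR's quasi-likelihood test, Benjamini-Hochberg adjusted p = 0.463).

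The other 7 were near the detection limit of 3 counts per library, on average 1.79 CPM in sham and 1.06 CPM in the IZ. Chad, a cartilage matrix gene, had 32 counts over 7 of 8 sham libraries and 0 in every IZ library, which makes it at least 2.34-fold lower when the mean sham level is set against the mean IZ limit. Podnl1, the closest relative of Podn, had counts in 3 of 8 sham libraries, at most 1 each, and in all 9 IZ libraries, with 1 to 19 counts. The means of Podnl1 were 0.223 CPM in sham and 1.54 CPM in the IZ, and 8 of 9 IZ libraries were above every sham library. Since the mean IZ level was below the mean sham limit of 1.79 CPM, that limit cannot bound a rise, and none was tested. Omd, which lies between Aspn and Ogn, was at 2.38 ± 1.65 CPM and 2.40 ± 1.32 CPM. The counts of Kera, Epyc, Optc and Nyx did not exceed 5 in sham or 6 in the IZ.

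The genes that build the sugar chains were mostly higher. Their lists and those below were chosen with earlier results of these data known. Some listed genes, such as Xylt1, Chst11, Dsel, Chst2, Tlr2 and Adamts4, were so low in sham that they passed the filter through the IZ libraries. The shares over all tested genes stand beside the lists for scale and are no like comparison. The chains of Dcn and Bgn are built on a linker that a xylosyltransferase begins, and of 13 linker and precursor genes 10 were higher and 1 lower in the IZ, where 36.3% of all tested genes were higher and 33.1% lower. The median log2 fold change of the list was 0.86, against 0.05 for all tested genes. Xylt1, which starts the chain, rose from 2.86 ± 1.87 CPM to 15.3 ± 6.67 CPM (log2 fold change 2.37 ± 0.34, SE), Ugdh, which makes the UDP-glucuronate that chains are built from, by 1.83 ± 0.14 and the sulfate donor transporter Slc35b3 by 1.27 ± 0.23. Fam20b, the linker xylose kinase, fell by 0.50 on the log2 scale (edgeR's quasi-likelihood test, Benjamini-Hochberg adjusted p = 0.0143), while the values of Slc35d1 (−0.27) and B3gat3 (−0.15) did not pass.

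Of 13 tested chondroitin and dermatan chain genes 11 were higher and 2 were not called, with a median of 1.72, beside 36.3% higher among all tested genes. Dse, the epimerase that turns chondroitin into dermatan, rose from 9.34 ± 1.87 CPM to 47.3 ± 11.1 CPM (2.35 ± 0.18, SE), its relative Dsel by 2.14 ± 0.29 and the 4-O-sulfotransferase Chst11 by 2.30 ± 0.36. At the other end were Chst7 at 0.97 ± 0.23, which was called, and Csgalnact2 at 0.23 and Chst15 at −0.43, which were not. Of 4 tested keratan sulfate genes 3 were higher, against the same 36.3%, Chst2 by 2.22 ± 0.26, Chst1 by 1.64 ± 0.26 and B4galt1 by 1.06 ± 0.10, and B4galt4 was at −0.003. The median of the 4 was 1.35, and 2 more genes of that list had no count above the floor in any library.

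Among proteases that trim or cut these proteins, 5 of 8 tested were higher and 3 were not called, with a median of 1.76. Of all tested genes 36.3% were called higher and 69.5% in either direction, so the share of the proteases called at all was not above that background. Bmp1, the procollagen proteinase that removes the propeptide of Bgn, rose from 29.5 ± 7.62 CPM to 141 ± 24.4 CPM (2.27 ± 0.15, SE), and Mmp14, a membrane-bound metalloproteinase that cuts Lum, from 19.0 ± 7.75 CPM to 217 ± 63.6 CPM (3.54 ± 0.21). The aggrecanase Adamts4 had 0.612 ± 0.781 CPM in sham, under the limit of 3 counts, and 8.69 ± 4.70 CPM in the IZ, and was called higher. It passed the filter on low counts through the IZ libraries, so it stands in the 5 of 8 for being high there. Adamts5 (−0.01), Htra1 (−0.18) and Mmp3 (0.42) did not pass.

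Of 11 tested receptor genes 8 were higher and 1 lower, beside 36.3% and 33.1% of all tested genes, with a median of 1.85. Tlr2, a receptor of soluble Bgn, rose from 2.74 ± 1.02 CPM to 23.7 ± 4.86 CPM (3.06 ± 0.21, SE), its co-receptor Cd14 from 9.35 ± 3.94 CPM to 55.9 ± 11.8 CPM (2.61 ± 0.21) and Cd44 from 9.84 ± 3.43 CPM to 77.5 ± 17 CPM (2.98 ± 0.19). None of these 3 overlapped between groups, but they were named for having the highest log2 fold changes of the list. The 16.6% of all tested genes without overlap in that direction is therefore no like comparison for them. Kdr, the endothelial VEGF receptor that Dcn can bind, fell from 139 ± 42.2 CPM to 42.6 ± 18.6 CPM, by 1.70 on the log2 scale. Igf1r (0.35) and Fas (0.38) did not pass. Macrophage markers rose in the same libraries, as given above, and their part in the Tlr2 and Cd14 values was not tested.

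Ligands and matrix partners were higher for 21 of 22 tested genes, beside 36.3% of all tested genes, with a median of 3.12. This list, too, was chosen with earlier results of these data known, so that share is no like comparison for it. The largest changes were those of Lox, the collagen cross-linking enzyme (27.4 ± 8.78 CPM to 679 ± 261 CPM; 4.64 ± 0.28, SE), the fibril-associated collagen Col12a1 (4.53 ± 0.22) and Ccn4 (4.29 ± 0.25), a secreted Wnt target that binds Dcn and Bgn. The smallest were Tgfb2 (1.5 ± 0.14), Tgfb1 (1.41 ± 0.22) and Bmp4 (0.31 ± 0.23), of which Bmp4 was not called. Col1a1, Col1a2, Lox and C1qa in this list also stand among the fibroblast and macrophage markers, as do Pcolce among the proteases and Kdr among the receptors for their marker lists.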

How the data were processed

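RNA of 8 sham left ventricles and 9 infarct zones was sequenced as MACE 3′ end libraries with unique molecular identifiers. The deposited values are raw counts per gene, which the authors made by trimming with Cutadapt, mapping to mm10 and counting with HTSeq. The submitters' processing notes also name bcl2fastq, Bowtie2 and DESeq2. The strand setting, the annotation release and how reads in overlapping genes were treated are not given in the sources used here. Symbols were taken from GENCODE M21, and 31521 of 31647 features matched. Of the listed genes, 2 (Chsy3 and Bmp10) were not analysed here.

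The test on counts was that of edgeR 4.0.16 run in R 4.3.3 (filterByExpr with a minimum count of 10, TMM scaling, glmQLFit and glmQLFTest without covariates, two-sided, Benjamini-Hochberg adjustment over 12301 genes, threshold 0.05), a fit that gives the adjusted p-values of the text. The fold changes and their intervals (95%) come from this fit. The log2 CPM used for correlations had a prior count of 1. Ratios of counts used a pseudocount of 0.5 and exact permutation tests. Correlations used exact permutation of pairings, computed with NumPy 2.4.6. The detection limit was set at 3 counts, and limits from it cover counting error only. Start regions came from RefSeq (GRCm38.p6). BLAST 2.17.0 found no gene whose 500 bases of 3′ end matched a member over 100 bases at 95% identity.

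Named are the 8 members, 9 further family genes, the 3 highest and 3 lowest log2 fold changes of each list, the 3 genes most correlated with each member, and the 3 highest and the lowest pair correlations in each group. Members and lists were chosen with earlier results of these data known. Alternatives were DESeq2 1.42.0 (Wald test), 3 other scalings, no filter, a mean of at least 50 counts, no mitochondrially encoded features, all libraries thinned to the total of the smallest, a replicate block, a pseudocount of 1, a prior count of 5, medians for means, and each library left out. The scripts were checked on simulated counts. Protein features were planned and not computed, since no protein sequences were used here. Replicate numbers did not pair the samples.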

Additional observations from a re-analysis of the deposited data

Results flagged for a closer look

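In 76 groups of values, 7 held a library far from the others of its group by Dixon's criterion, which chance meets in about 1 of 20 groups. Sham replicate 5 had 128 CPM of Lum, where the sham median was 75.9 CPM, and 78.2 CPM of Prelp, where the median was 41.5 CPM. In the same library Prelp made up 4.35% of the summed member counts, against a sham median of 2.86%. Sham replicate 2 had the smallest share of Ogn, 7.63%, against a median of 9.68%. In IZ replicate 1, the library with the most cardiomyocyte markers, the log2 ratio of Dcn to fibrillar collagen was −3.02, against an IZ median of −4.10. IZ replicate 3 had a log2 ratio of Aspn to Pdgfra of 1.59, against a median of 2.71. IZ replicate 7 had a Podn share of 0.849%, against a median of 0.348%.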

How the results depend on the processing

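The counts of called genes, of members called higher (5) and lower (0), and the log2 fold changes of Bgn, Aspn, Lum, Fmod and Ogn kept their direction and call with DESeq2 size factors, upper quartile scaling, the DESeq2 Wald test, mitochondrially encoded features removed, thinning and each library left out, with 7962 to 8614 genes and 5 members called in the last. Under total counts alone 8 members were called higher, with Dcn at 1.11, Podn at 1.22 and Prelp at 0.94, and 8 of the protease genes and 2 of the 9 further family genes were called. Without a filter these last counts were 8 and 4, as more genes were tested. With a mean of at least 50 counts fewer genes were tested, and 5239 genes were called against 8544, with 6 linker and precursor, 4 chondroitin and dermatan, 1 keratan sulfate and 0 further family genes among them, where Podn was not tested. Thinned to the smallest total, Podn was at −0.065 and Ogn to Pdgfra at −0.032.

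With libraries left out in turn, the uncalled Dcn ranged from −0.051 to 0.11, Prelp from −0.28 to 0.051 and Podn from 0.01 to 0.25, Ogn to Pdgfra from −0.048 to 0.15, and Fmod to fibrillar collagen from −1.18 to −0.80. With medians in place of means, Ogn to Pdgfra was −0.11 and Fmod to fibrillar collagen −0.78, with an adjusted exact permutation p of 0.0908. The other ratios kept their side of the threshold in every setting run. The correlation of Lum with Podn in the IZ was 0.188 on total count CPM and 0.214 without the 2 farthest libraries. That of Dcn with Lum in sham was 0.853 on total count CPM and 0.828 without the 2 farthest libraries, with adjusted exact permutation p-values of 0.0604 and 0.272, the latter over 6 libraries, and that of Aspn with Ogn in the IZ passed without IZ replicate 1 (0.947). The causes were not tested.

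With the replicate number as a block 8079 genes were called and 5 members were higher, and it changed no member's call. Same-numbered libraries deviated with correlations of −0.216 to 0.128, of which 1 of 8 was above 0.1, and 1 sham library correlated best with its own number, so the labels share only a number. Depth limits Fmod in sham, Podn and the 7 untested family genes most, and the 3 uncalled members are bounded only by their intervals.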
